A study of Rattus norvegicus with 24 samples.

Results

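Chemokines are small secreted proteins that draw leukocytes along a gradient by binding G protein-coupled receptors, and inflammatory cytokines such as interleukin 1 beta and tumour necrosis factor set off their production through the transcription factor NF-kappaB. In the brain these genes are mostly silent at rest and can be switched on within an hour in microglia, astrocytes, endothelial cells and neurons. The genes described here are 4 chemokines (Ccl2, Ccl3, Cxcl1 and Cxcl13), 3 cytokines (Il1b, Il6 and Tnf), the leukocyte adhesion molecule Icam1 and the cytokine feedback inhibitor Socs3. They were chosen by gene name, which gave 9 genes and 10 of the 41012 probes on the array. Cxcl13 was found through its probe's accession, since the array's design lists it under a locus name, and Il1b has 2 probes.

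The rats were male Wistar animals without a transgene, 9 weeks old in the sample labels and 10 weeks old in the design text. Treated rats received dizocilpine (MK-801), which blocks the open channel of NMDA glutamate receptors, by a single intraperitoneal injection of 0.16 mg/kg (high dose) or 0.08 mg/kg (low dose), and control rats received saline. The series used 9 rats, 3 of them saline controls. At 40 min after the injection each brain was divided into cerebral cortex, hippocampus, amygdala, ventral striatum, hypothalamus and midbrain. Each of 24 arrays set RNA of treated rats against saline RNA of the same region in 2 colours, with 2 arrays of opposite dye for each region and dose. How many rats went into an extract is not given in the labels, and a pair of dye-swapped arrays was counted as 1 replicate. A single region therefore has no test, and p-values across the 6 regions measure the spread between regions of the same rats, which may be technical. Both doses were read against RNA of the same 3 saline rats. In whole tissue, fewer cells of a type and less RNA per cell cannot be told apart.

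Ratios of treated to saline signal are given on the log2 scale, and a value of 1 region is the mean of its 2 arrays with their SD. A probe counted as well above background where the scanner software marked at least 50% of its spots so. Between 56.8% and 89.7% of spots passed that mark per array and channel, and the median net signal of a channel lay between 47.3 and 357 intensity units. Dye-swapped arrays correlated between -0.44 and -0.14 over all probes after their ratios were turned to treated over saline, whereas arrays of the same dye order correlated between 0.19 and 0.69. A dye effect of a probe has opposite sign on both arrays of a pair and cancels in its mean. Dusp1, a MAP kinase phosphatase induced by stimulation, was above 0 on 24 of 24 arrays. Of 19 transcripts taken as regional markers, 13 had their highest saline level in the expected region. These were 4 of 4 for ventral striatum, 4 of 4 for midbrain, 3 of 4 for hippocampus, 1 of 3 for cortex and 1 of 4 for hypothalamus (Pmch). Of the other hypothalamic markers, Hcrt was highest in cortex, Avp in amygdala and Pomc in midbrain. No marker of the amygdala was used.

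The members' results turn on a few short hybridisation probes. The lines below give the opening 30 of the 60 bases of the probes for the chemokines with the highest ratios in a single region and for both probes of Il1b, as the array's design lists them, with no capitals because no part of a probe was singled out.
Ccl2: tttatttctctgtgaatcctggttcaacac
Cxcl13: tcatgagggaaataatgcttcgactttgaa
Cxcl1: attgaaagttgtctttcatattttatggtc
Il1b, brighter probe: aagtcaggtctctcagagccataagaaaac
Il1b, other probe: gctgaaaatgaagagtttcatattgtgtgg
In the rn3 build these probes lie at chr10:70271542-70271601 on the plus strand for Ccl2, chr14:15126534-15126593 on the minus strand for Cxcl13 and chr14:18690468-18690527 on the minus strand for Cxcl1. The Il1b probes lie on the minus strand at chr3:116870289-116870348 for the brighter one and chr3:116870038-116870097 for the other. The probes of Ccl2, Il6, Tnf and Icam1 and the dimmer Il1b probe were each printed 10 times per array, and the remaining probes once. No annotation of that build was used, so the exons they match are not stated.

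Ccl2, the ligand that draws monocytes through the receptor Ccr2, gave the largest ratio of the 9 genes. In the high-dose cortex it was 1.63 ± 0.06 and in the low-dose cortex 1.04 ± 0.10 (SD of 2 arrays), which is 3.09-fold and 2.06-fold over saline. The ratios of single arrays were 1.58 and 1.67 at the high dose and 1.11 and 0.98 at the low dose. In the amygdala the ratios were 0.99 and 0.94 at the high dose, against 0.41 and 0.08 at the low dose. Both high-dose arrays of these regions thus lay above both low-dose arrays. The ventral striatum gave 0.56 and 0.58 at the high dose, against 0.32 and 0.09 at the low dose. The hippocampus gave 0.48 and 0.09 at the high dose, against 0.08 and -0.06 at the low dose.

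In the other 2 regions Ccl2 ratios lay nearer 0. The hypothalamus had ratios of 0.15 and 0.03 at the high dose and 0.01 and -0.15 at the low dose. The midbrain had 0.15 and -0.23 at the high dose and 0.11 and -0.26 at the low dose, so that the arrays of a pair fell on opposite sides of 0. Among the 10 spots of the Ccl2 probe on an array, the SD of the log2 ratio had a median of 0.11 and a range of 0.03 to 0.32.

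The Ccl2 signal was weak, which bears on the size of these ratios. At the high dose in cortex, the treated channel had net signals of 548 and 213 intensity units and the saline channel 35.6 and 136, the larger value of each channel being that labelled with Cy5. At the high dose the treated channel was well above background on both arrays in all 6 regions, while the saline channel was so on both arrays only in cortex and on 1 of 2 elsewhere. In the low-dose hippocampus neither channel passed on either array. The offset of 50 added in the background correction pulls ratios of such dim probes toward 0. With the scanner software's processed signals, which carry no offset, the high-dose ratio was 2.62 ± 0.28 in cortex, 1.85 ± 0.44 in amygdala, 1.66 ± 0.53 in ventral striatum and 1.60 ± 0.54 in hippocampus. By the same signals the low-dose cortex gave 1.82 ± 0.15, and the high-dose hypothalamus 0.28 ± 0.43 and midbrain -0.01 ± 0.78. The order of the 6 regions at the high dose was the same under both corrections, and the SDs were larger without the offset.

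**Figure D1:**
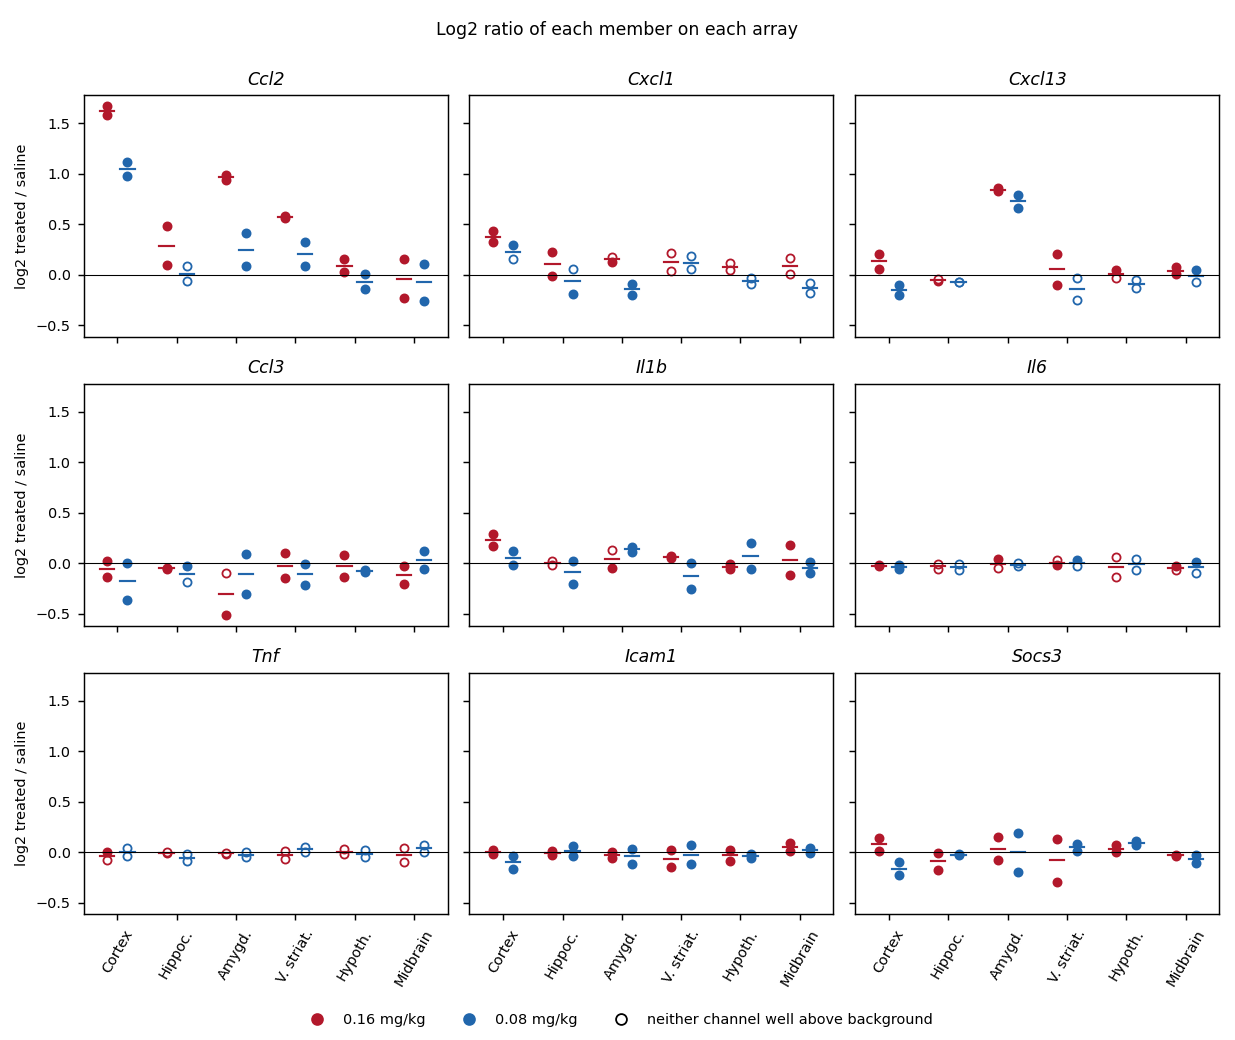
Log2 ratio of treated over saline (vertical axis) on each array for each of the 9 genes, by brain region, with red points for 0.16 mg/kg, blue points for 0.08 mg/kg and short lines for the mean of 2 dye-swapped arrays. Open points mark arrays on which neither channel was well above background. The Ccl2 points stand highest in cortex, at 1.58 and 1.67 for the high dose, the Cxcl13 points stand highest in the amygdala, and those of Tnf, Il6, Icam1 and Socs3 lie near 0.

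Across regions, Ccl2 averaged 0.58 ± 0.17 at the high dose (SE over 6 regions), was above 0 in 5 of 6 regions, and missed the threshold of 0.05 (adjusted p = 0.145, limma with Benjamini-Hochberg adjustment over 18662 genes). Without the cortex this mean was 0.37. Ccl2 entered this test through its treated channel, since its saline channel was well above background on both arrays in cortex alone. When both channels had to pass, Icam1 was the 1 member left and Ccl2 and Socs3 were not tested. Ccl2, Icam1 and Socs3 were the only members bright enough in all 6 regions to be tested at the high dose, and limma called 0 of these 3, where it called 2.45% of all genes tested. Of the 3, 1 had an unadjusted limma p below 0.05, Ccl2 (limma, unadjusted p = 0.00645). Of all 18662 genes tested, 2341 had one. The low-dose fit and the fit of the dose difference held 1 member each, Icam1, which was not called, against 2.76% and 1.79% of all genes.

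When the filter on dim probes was dropped, all 9 members could be tested. Then limma called 0 of 9 at the high dose, where it called 1.19% of all genes, and 3 had an unadjusted p below 0.05. These were Ccl2 and Cxcl1, above saline in the mean, and Ccl3, below it. For the low dose it called 0 of 9, where it called 1.64% of all genes, and 1 had an unadjusted p below 0.05, Ccl3, below saline in the mean. Of all features, 3543 of 35526 had such an unadjusted p at the high dose and 3952 of 35525 at the low dose. In the dose difference 1 of 9 passed, where 0.833% of all genes did. That gene was Ccl2, whose high-dose ratio exceeded its low-dose ratio by 0.36 ± 0.07 (SE) in the mean, and in 6 of 6 regions (limma, adjusted p = 0.0349 over all 35523 features). The differences were 0.58 in cortex, 0.27 in hippocampus, 0.72 in amygdala, 0.36 in ventral striatum, 0.16 in hypothalamus and 0.04 in midbrain. As both doses used saline RNA of the same rats, this difference sets the treated rats of each dose against each other. Scanner-processed signals gave a mean difference of 0.91. With the filter and without hippocampus, Ccl2 could be tested, and its dose difference of 0.37 did not pass (limma, adjusted p = 0.071). At the high dose Ccl2 passed that filter through its treated channel in each of these regions but cortex.

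Arrays were scanned on 3 days, with cortex and ventral striatum on the first, amygdala and midbrain on the second, and hippocampus and hypothalamus on the third. Each region had a slide of its own, so slide and region cannot be told apart. With scan day as a block the high-dose mean of Ccl2 was 0.58 (limma, adjusted p = 0.0837). Within the first day it was 1.10 (limma on 2 regions, adjusted p = 0.00564), where 1.15% of all genes were called, and the dose difference was 0.47 (adjusted p = 0.0133), where 0.506% were. Here too Ccl2 passed the high-dose filter through its treated channel, as the saline channel of the ventral striatum was well above background on 1 of 2 arrays. Within the second day the high-dose mean was 0.46 (limma, adjusted p = 0.454) and the dose difference 0.38 (adjusted p = 0.607). Within the third day the high-dose mean was 0.19 (limma, adjusted p = 0.467), and the dose difference, 0.22, was not tested.

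The 4 forebrain regions, cortex, hippocampus, amygdala and ventral striatum, were also set against hypothalamus and midbrain. Ccl2 was higher in forebrain by 0.84 ± 0.28 at the high dose (SE, limma unadjusted p = 0.0136), and this did not pass adjustment (adjusted p = 0.999). Ccl2 entered this comparison too through its treated channel, as its saline channel was well above background on both arrays in cortex alone. In that limma comparison 0 of 18507 genes were called, which is 0%, while 633 had an unadjusted p below 0.05. The low-dose comparison called 0 of 19734 genes, while 598 had an unadjusted p below 0.05. Icam1 and Socs3 differed between these sets of regions at the high dose by -0.03 ± 0.05 and -0.02 ± 0.07 (SE).

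Cxcl13, the B cell chemokine that binds Cxcr5, had its highest ratios in the amygdala and lay nearer 0 elsewhere. The amygdala arrays gave 0.82 and 0.86 at the high dose and 0.79 and 0.66 at the low dose, or 1.79-fold and 1.66-fold over saline in the mean. Both channels were well above background on all 4 of those arrays, with net signals of 614 and 239 in the treated channel and 78.9 and 469 in the saline channel at the high dose. In the other 5 regions the mean lay between -0.05 and 0.13 at the high dose and between -0.15 and -0.01 at the low dose. In the low-dose hippocampus, ventral striatum and hypothalamus neither channel was well above background on either array. In the high-dose hippocampus and hypothalamus the treated channel was so on 1 array and the saline channel on neither. The offset pulls such dim ratios toward 0, so these values do not show that Cxcl13 was unchanged there. The amygdala doses differed by 0.11, which is close to the SD of 0.09 between the low-dose arrays. Both of these ratios share the saline rats.

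Cxcl13 also had its highest saline level in the amygdala. On the normalised log2 intensity scale, that level was 8.03 ± 0.11 in amygdala (SD of 4 saline channels), 7.17 ± 0.24 in cortex, 6.82 ± 0.28 in midbrain, 6.46 ± 0.11 in ventral striatum, 6.39 ± 0.16 in hypothalamus and 6.36 ± 0.34 in hippocampus. Amygdala stood clear of cortex, and the last 3 regions did not differ beyond their spread. In those 3 regions, 1 of the 12 saline channels was well above background. Ccl2, by contrast, had saline levels between 6.67 ± 0.14 in hippocampus and 7.13 ± 0.16 in midbrain, and its cortex level of 6.95 ± 0.18 overlapped both neighbours in the order, the amygdala and the ventral striatum.

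**Figure D2:**
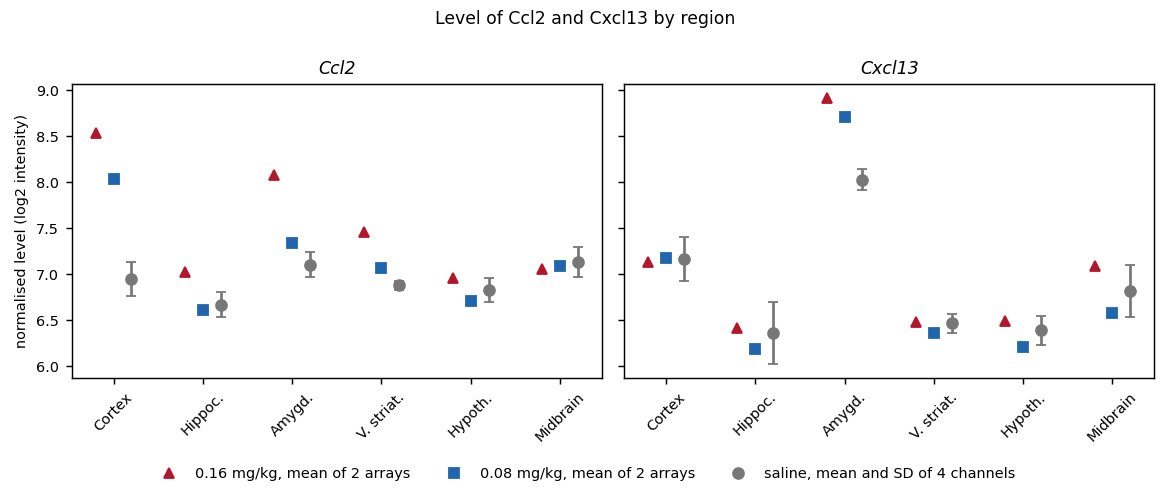
Normalised log2 intensity (vertical axis) of Ccl2 and Cxcl13 by region, with triangles for 0.16 mg/kg, squares for 0.08 mg/kg (each the mean of 2 arrays) and circles for saline (mean and SD of 4 channels). Ccl2 in treated cortex stands above a saline level of 6.95, and Cxcl13 has its highest saline level, 8.03, in the amygdala, where both doses lie higher still.

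Cxcl1, which draws neutrophils through Cxcr2, was near the detection limit. In the cortex it gave 0.32 and 0.44 at the high dose and 0.29 and 0.15 at the low dose. The treated channel was well above background on both high-dose cortex arrays and the saline channel on 1 of them. The mean was above 0 in 6 of 6 regions at the high dose, with a range of 0.08 to 0.38, and in 2 of 6 at the low dose, with a range of -0.14 to 0.22. With processed signals the high-dose mean was above 0 in 5 of 6 regions, and the midbrain gave -0.27 ± 1.29. Over the 24 arrays, however, the treated channel passed 6 times and the saline channel 7 times. Without the filter, the high-dose mean was 0.15 ± 0.04 (SE, limma, adjusted p = 0.093) and the dose difference 0.16 ± 0.04 (adjusted p = 0.0953), and neither passed.

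Ccl3, a chemokine made largely by microglia and macrophages in brain, was at or slightly below saline. Its means lay between -0.30 and -0.02 at the high dose and between -0.18 and 0.03 at the low dose. The lowest, -0.30 ± 0.29 in the high-dose amygdala, came from arrays at -0.09 and -0.51. On the array at -0.09 neither channel was well above background. In hippocampus no channel was so on both arrays at either dose. Without the filter its mean was -0.10 ± 0.04 at the high dose (SE, limma, adjusted p = 0.388) and -0.09 ± 0.03 at the low dose (adjusted p = 0.226). The high-dose mean was -0.33 with processed signals and -0.05 without the amygdala, and the low-dose mean was -0.17 with processed signals. Its saline level was highest in amygdala, 7.42 ± 0.23, and ventral striatum, 7.40 ± 0.22, which did not differ beyond their spread.

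Il1b, the interleukin 1 family cytokine that activates endothelium, glia and neurons through Il1r1, was above 0 in cortex at the high dose on both probes. The brighter probe gave 0.29 and 0.18 there and the 10-spot probe 0.19 and 0.23. At the low dose the cortex means were 0.05 ± 0.10 for the brighter probe and 0.03 ± 0.04 for the other. In the high-dose hippocampus neither channel of either probe was well above background on either array. Across regions without the filter, the brighter probe averaged 0.06 ± 0.03 at the high dose (SE, limma, adjusted p = 0.62) and 0.00 ± 0.04 at the low dose (adjusted p = 0.995). The probes disagreed in sign in 5 of the 12 regions and doses.

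Il6, which signals through gp130 and Stat3, and Tnf, which signals through Tnfrsf1a and Tnfrsf1b, could hardly be measured. The Tnf probe was well above background in 0 of 24 treated channels and 1 of 24 saline channels, and the Il6 probe in 6 of 24 of each. The means of all regions and doses lay between -0.05 and 0.04 for Tnf and between -0.05 and 0.00 for Il6. A change in either transcript was not detectable at these signals, which does not show that it was absent.

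The 2 members that are not secreted, Icam1 and Socs3, had ratios near 0. Icam1, the endothelial ligand that holds leukocytes through their beta2 integrins, was well above background in both channels of all 24 arrays. Its high-dose means lay between -0.06 and 0.05 and averaged -0.01 ± 0.02 (SE, limma, adjusted p = 0.883). Its low-dose means lay between -0.10 and 0.02 and averaged -0.03 ± 0.03 (adjusted p = 0.673), and the dose difference was 0.02 ± 0.03 (adjusted p = 0.892). Its saline level was highest in amygdala, 8.40 ± 0.03, then cortex, 8.21 ± 0.07, and the other 4 regions lay at or below 8.06 within their spread.

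Socs3, the inhibitor of JAK kinases that cytokines of the Il6 type induce through Stat3, had high-dose means between -0.09 and 0.08, averaging -0.01 ± 0.03 (SE, limma, adjusted p = 0.936). Its low-dose means lay between -0.16 in cortex and 0.09 in hypothalamus, and in the low-dose hippocampus its treated channel was well above background on 0 of 2 arrays. In cortex, Socs3 arrays gave 0.14 and 0.01 at the high dose, against -0.10 and -0.23 at the low dose. No test is available for that region.

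**Figure D3:**
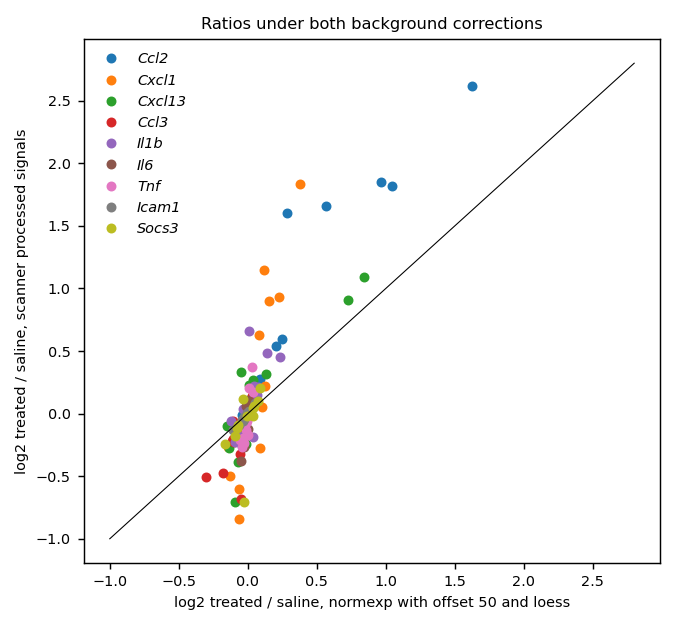
Mean log2 ratio of treated over saline of each member in each region and dose with the scanner software's processed signals (vertical axis) against the same with normexp, offset 50 and loess (horizontal axis), and a line of equality. Ccl2 in high-dose cortex stands at 1.63 with the offset and 2.62 without it, Icam1 stays near the line, and dim probes such as Cxcl1 spread widely on the vertical axis.

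All lists, the marker lists below included, were chosen with earlier results of these data known. Shares of them called are therefore a description and not a test of a pathway or cell type. Over all genes, 2341 of 18662 tested at the high dose had an unadjusted limma p below 0.05. At the low dose 2731 of 19877 did, and in the dose difference 2065 of 18166. Of the other genes of these pathways in 8 lists, 7 of 81 tested were called at the high dose (8.64%), where 2.45% of all genes were. In the low-dose test 4 of 86 were called (4.65%, against 2.76% of all genes), and in the dose difference 1 of 77 (1.3%, against 1.79%). Among 28 other chemokine ligands, 26 were on the array and 7 were bright enough to test at the high dose. Of these, 1 rose, Ccl6, a ligand of Ccr1 in rodents, by 0.17 ± 0.03 (SE, limma, adjusted p = 0.0193). The median of those 7 was 0.01 and that of all genes tested -0.0013. Of 22 chemokine receptors, 19 were on the array, 4 were tested at the high dose and 1 rose, the scavenging receptor Ackr3, by 0.18 ± 0.03 (adjusted p = 0.00252). At the low dose limma called 0 of 9 ligands and 0 of 4 receptors, and 1 of each had an unadjusted p below 0.05. Of 25 other cytokines, 9 were tested at the high dose and 1 rose, Il12a, by 0.23 ± 0.04 (adjusted p = 0.00592). Of 22 cytokine receptors, 21 were on the array. Limma called 0 of 10 tested at the high dose and 0 of 11 at the low dose, while 2 and 3 of them had an unadjusted p below 0.05.

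Among the regulators called, Dusp1 had the largest change. In the list of NF-kappaB and Toll-like receptor genes, 17 were tested at the high dose, and 1 rose and 1 fell. Nfkbia, the inhibitor that NF-kappaB itself induces, rose by 0.24 ± 0.03 at the high dose (limma, adjusted p = 0.00116) and by 0.14 ± 0.03 at the low dose (adjusted p = 0.0225), in 6 of 6 regions each. Tlr2, the receptor of bacterial lipopeptides, was lower in 6 of 6 regions, at -0.18 ± 0.03 at the high dose (adjusted p = 0.0168) and -0.11 ± 0.02 at the low dose (adjusted p = 0.0403). Of 10 inflammatory feedback genes tested at the high dose 2 rose, Dusp1 by 1.09 ± 0.10 (adjusted p = 0.000219) and Zfp36l1, which speeds decay of AU-rich mRNAs, by 0.17 ± 0.03 (adjusted p = 0.0146). At the low dose 1 of 11 did, Dusp1, by 0.59 ± 0.08 (adjusted p = 0.00166). In the dose difference Dusp1 was higher at the high dose by 0.50 ± 0.06 (adjusted p = 0.00128). Of the JAK-STAT and SOCS genes, limma called 0 of 17 at the high dose, where 3 had an unadjusted p below 0.05, and 0 of 18 at the low dose, where 0 had one. Of 7 endothelial adhesion genes tested, 0 were called at the high dose, where 2 had an unadjusted p below 0.05. At the low dose 1 of 7 was, the leukocyte integrin chain Itgb2, which rose by 0.15 ± 0.03 (adjusted p = 0.0236).

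Markers of blood and meninges differed in level between some of the same samples, and their part in the members' ratios was not tested. In the high-dose cortex the median log2 ratio of 6 blood markers was 0.39 and that of 9 meningeal and fibroblast markers 0.07, and in the low-dose cortex these were -0.12 and -0.98. Of the 9 meningeal markers, 5 were above saline in the high-dose cortex and 0 in the low-dose cortex. Across regions limma called 0 of 8 meningeal markers at the high dose, at the low dose or in the dose difference, where 1, 4 and 2 had an unadjusted p below 0.05. Their dose differences had a median of 0.28 and a range of 0.18 to 0.35. The meningeal median was 0.62 (high dose) and -0.30 (low dose) in midbrain, and -0.61 and -0.64 in hippocampus. In amygdala, ventral striatum and hypothalamus it lay between -0.20 and 0.11. The summed meningeal level in cortex was 39680 to 49360 intensity units in high-dose channels and 19010 to 19960 in low-dose channels, against 36730 to 44430 in saline channels. The summed blood level in cortex was 81350 to 103600 in high-dose and 49360 to 57830 in low-dose channels, against 65210 to 70810 in saline channels. Across regions, 3 of 4 blood markers tested rose at the high dose and 3 of 5 fell at the low dose, and for 4 of 4 the high dose exceeded the low dose, with a median difference of 0.68. Of all genes tested, 2.45%, 2.76% and 1.79% were called in these 3 fits. The Ccl2 dose difference stands beside these blood and meningeal shifts.

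Beside the Cxcl13 ratio in amygdala, the 9 meningeal markers had a median of 0.10 at the high dose, and of -0.01 after the low one. Their summed level there, 88530 to 123300 at the high dose and 105000 to 105700 at the low dose, against 77720 to 101200 with saline, was the highest of the 6 regions. Lymphocyte markers were mostly not well above background in amygdala, where 1 of 8 on the array passed at each dose, with Cd3e, Cd3g, Cd8a and Cd4 among those below it. Their summed level was 887 to 914 at the high dose and 802 to 1065 at the low dose, against 853 to 958 with saline. Of 8 neutrophil markers on the array, 5 passed in the high-dose cortex, where their median was -0.05, and Mpo, Ngp and Mmp8 were below background. Their summed level in that cortex was 1194 to 1690 at the high dose, against 1240 to 1647 with saline.

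Microglial markers shifted at the low dose. Of 14 tested, 5 rose at the low dose and 0 at the high dose by limma, where 1 had an unadjusted p below 0.05, and for 4 the high dose lay below the low dose. Of all genes tested, limma called 2.45% at the high dose, 2.76% at the low dose and 1.79% in the dose difference. P2ry12, a purinergic receptor of resting microglia, rose by 0.17 ± 0.03 at the low dose (adjusted p = 0.0108). In cortex the median of 15 microglial markers was -0.03 after the high dose and 0.04 after the low one. Of 4 perivascular macrophage markers on the array, 2 were tested, and Lyve1 rose by 0.21 ± 0.04 at the high dose (adjusted p = 0.0273) and 0.27 ± 0.03 at the low dose (adjusted p = 0.000256). Endothelial markers had a median of -0.06 in cortex at either dose. Of those tested across regions, 1 of 9 was called at the high dose and 1 of 10 at the low dose. This was Kdr, a receptor of vascular endothelial growth factor, which fell in 6 of 6 regions each, at -0.18 ± 0.03 at the high dose (SE, limma, adjusted p = 0.016) and -0.30 ± 0.05 at the low dose (adjusted p = 0.00467).

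Astrocyte and neuron markers complete the lists. Of 8 astrocyte markers tested, 1 fell at the high dose, and 1 fell and 1 rose at the low dose, where 2.45% and 2.76% of all genes were called. Sox9, a transcription factor of astrocytes and glial precursors, was at -0.34 ± 0.03 at the high dose (SE, limma, adjusted p = 0.0003) and -0.27 ± 0.04 at the low dose (adjusted p = 0.00204). S100b, a calcium-binding protein, rose by 0.13 ± 0.02 at the low dose (adjusted p = 0.0122). The median of the 8 in cortex was -0.01 at the high dose and 0.02 after the low one. Of 6 neuron markers limma called 0 at the high dose, at the low dose and in the dose difference, where 0, 1 and 2 had an unadjusted p below 0.05.

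**Figure D4:**
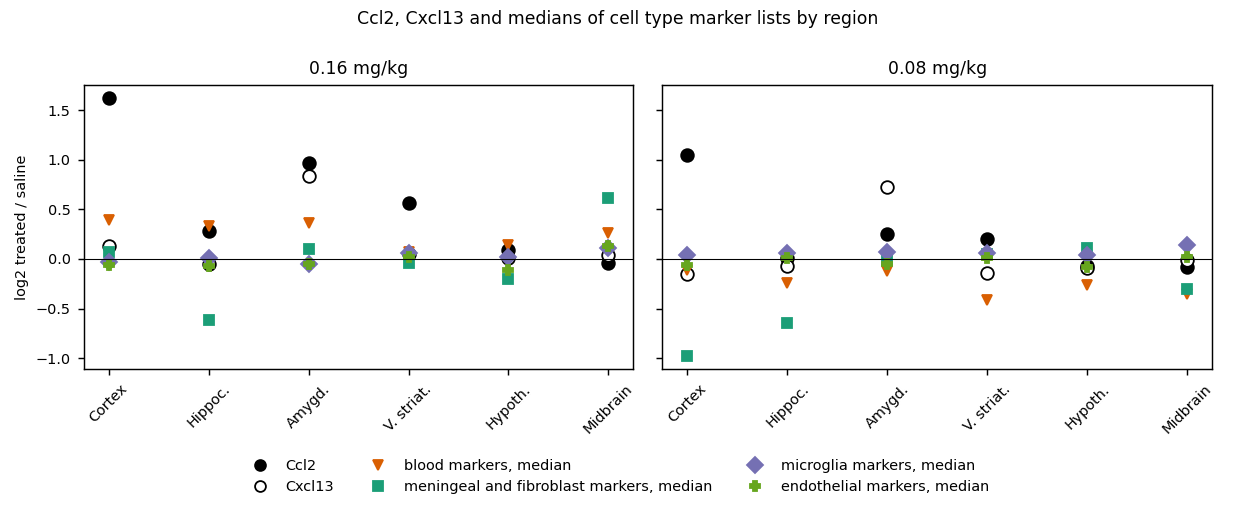
Log2 ratio of treated over saline (vertical axis) of Ccl2 (filled circles) and Cxcl13 (open circles) and the median log2 ratio of 4 marker lists by region, at 0.16 mg/kg on the left and 0.08 mg/kg on the right. In cortex Ccl2 lies at 1.63 and 1.04 while the meningeal median lies at 0.07 and -0.98, and blood medians are above 0 at the high dose and below 0 at the low dose.

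Patterns over the 12 combinations of region and dose were compared among 17909 genes tested at both doses. These 12 points share saline rats and, in pairs, a slide, so the correlations are a description. Icam1 was most like Pmel (Pearson r = 0.87), Entrep1 (r = 0.87) and the transcript listed as XM_227056 (r = 0.87), on ratios close to 0. Ccl2 was compared too, a choice made after its values were seen, and was most like Cebpd, an acute-phase transcription factor (r = 0.96), Bambi, a pseudoreceptor for TGF-beta (r = 0.95), and Hspa1a, an inducible heat shock protein (r = 0.94). Cebpd ranged from 0.27 to 1.34 over regions at the high dose and from 0.12 to 0.90 at the low dose.

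Of the members, 7 have a promoter in the RefSeq table of the GRCr8 build, and Ccl2 and Ccl3 were not matched. Matches to 5 motifs on both strands were counted in the 250 bases before and 50 after each start and are a description of letters, not of binding. The kappa B consensus occurred in 3 of these 7 promoters, Cxcl1, Il6 and Socs3, and in 7.51% of all 33469 promoters. The STAT motif TTCNNNGAA occurred in Icam1 and in 8.87% of all, and the cyclic AMP response element TGACGTCA in Il6 and in 1.83% of all. The AP-1 motif TGANTCA and the CArG box occurred in 0 of 7, and in 7.33% and 1.64% of all. The upstream 250 bases of Cxcl1 and Cxcl13 are shown because these are the chemokines with the highest ratios whose promoters were listed, with capitals marking motif letters.
Cxcl1: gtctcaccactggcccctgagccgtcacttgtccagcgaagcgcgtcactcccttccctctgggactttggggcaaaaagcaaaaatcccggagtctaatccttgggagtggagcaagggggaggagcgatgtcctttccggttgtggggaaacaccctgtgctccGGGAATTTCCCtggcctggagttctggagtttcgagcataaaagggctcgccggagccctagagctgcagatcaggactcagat
Cxcl13: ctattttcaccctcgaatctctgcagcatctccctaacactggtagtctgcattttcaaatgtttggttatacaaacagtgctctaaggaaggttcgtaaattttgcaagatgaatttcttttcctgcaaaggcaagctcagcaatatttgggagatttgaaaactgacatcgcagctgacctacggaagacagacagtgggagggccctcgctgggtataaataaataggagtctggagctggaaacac
The capitals in Cxcl1 cover 2 overlapping matches of the kappa B consensus, and Cxcl13 held no match to any of the 5 motifs. These windows lie at chr14:17479272-17479571 for Cxcl1 and chr14:13917871-13918170 for Cxcl13, both on the minus strand, and end 50 bases past the start.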

How the data were processed

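Total RNA from 6 brain regions was hybridised to 2-colour Agilent rat arrays of 45018 spots. Per the file headers, the scanner output holds spot intensity on a linear scale with local background, log10 ratios of Cy5 over Cy3 and processed signals, made with Agilent Feature Extraction 9.5.3.1 per the submitters' processing notes. The value table deposited by the authors matched log10 of treated over saline of the processed signals within 0.01 for 100% of spots once swapped arrays were turned, so its scale and direction were read from the values. The medians of its columns lay between -0.03 and 0.02, so no further centring was seen.

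From the mean signals and background medians, normexp (offset 50) and loess within array gave log2 ratios in limma 3.58.1 under R 4.3.3, with control spots at weight 0 and outlier spots, 236 to 708 per array, left out. Spots of a probe were averaged, and the brightest probe stood for a gene. A gene was tested where its probe was well above background in 1 channel on both arrays in all 6 regions. Fits used lmFit and eBayes over regions with Benjamini-Hochberg adjustment over all genes tested and a threshold of 0.05. Levels were taken per channel after loess and Aquantile scaling. Names were updated through the GRCr8 gene table, used for names alone.

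Alternatives were a smaller offset, processed signals, the deposited table, median centring, other filters, the mean over probes, scan day and single regions left out. The fit was tested on simulated data in which regions were drawn independently. The regions here share rats, so that test does not give the rate of false calls in these data. All 9 members and every list were named whatever their values, beside at most 4 called genes per list and the 3 genes most alike in pattern. Members and lists were chosen with earlier results of these data known. The number of arrays limits the precision. All columns used belonged to a sample, leaving 0 without one.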

Additional observations from a re-analysis of the deposited data

Results flagged for a closer look

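In 6 of 18 sets of 6 regions (9 genes at 2 doses), 1 region stood apart from the others by Dixon's criterion. That criterion is a gap to the nearest region that is large against the whole range. For independent values of equal spread, chance exceeds it in about 1 of 20 sets. These regions share rats, and the offset pulls ratios near background toward 0. That rate therefore does not hold here, and the flags are a description. Ccl2 in the low-dose cortex (1.04) was above the next region at 0.25. Cxcl13 in the amygdala was apart at the high dose (0.84, next 0.13) and at the low dose (0.73, next -0.01). Cxcl1 (0.38, next 0.15) and Il1b (0.23, next 0.07) were apart in the high-dose cortex, and Ccl3 in the high-dose amygdala (-0.30, next -0.12) rests on arrays that differ by more than its distance from the next region. On 1 of those Ccl3 arrays neither channel was well above background. The Il1b values are those of its brighter probe, printed once. On the 10-spot probe of Il1b the high-dose cortex was at 0.21 and the amygdala at 0.15, so the cortex stood less apart. The Ccl2 ratio differed between the doses by 0.36 in the test without a filter on dim probes. No cause of these differences was tested.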

How the results depend on the processing

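Weak signal limits these results. The 7 ratios of single regions given next grew when the offset was smaller or absent. Other ratios of dim probes did not all do so. With processed signals, Cxcl1 in the high-dose midbrain went from 0.09 to -0.27, and the low-dose mean of Cxcl13 from 0.04 to -0.13. With an offset of 16, Ccl2 was 1.98 and 1.32 in cortex (high and low dose), 1.25 in high-dose amygdala and 0.79 in high-dose ventral striatum, Cxcl13 in amygdala 0.96 and 0.84, and Cxcl1 in high-dose cortex 0.61. For the same 7 values, processed signals gave 2.62, 1.82, 1.85, 1.66, 1.10, 0.91 and 1.83, and the authors' deposited values 2.62, 1.82, 1.85, 1.66, 1.10, 0.90 and 1.83. Median centring gave 1.03 for Ccl2 and 0.87 for Cxcl13 in high-dose amygdala. Single arrays of these 7 values, an alternative chosen after seeing the data, lay between 0.32 and 1.67.

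Counts of all called genes (457, 548 and 325 at the high dose, the low dose and in the dose difference) were 59, 210 and 25 with median centring, and 360 at the low dose with scan day as a block. Within scan days, with 2 regions each, they were 266, 113 and 114 on the first, 130, 41 and 35 on the second and 82, 145 and 53 on the third. With a region left out they ranged from 266 to 389, 350 to 501 and 228 to 301. The high-dose count fell most without cortex (266), amygdala (285) or ventral striatum (289), and the low-dose count without cortex (350) or ventral striatum (358). The forebrain comparison gave 0 to 28 genes at the high dose and 0 to 9 at the low dose with a region left out, the highest without hypothalamus, and 7 at the low dose with median centring. It was not run within scan days, which hold forebrain regions alone or 1 region of each kind. The members called stayed at 0 except for 1, Ccl2, in the dose difference without the filter, and 1, Ccl2, at the high dose and in the dose difference on the first scan day. With both channels required, Icam1 was the 1 member tested. The cause of these changes was not tested beyond the fewer regions.

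Values near 0 changed sign. Icam1 at the high dose was 0.0105 on the second scan day, and its dose difference was -0.00601 on the third and -0.00121 to 0.0276 with a region left out. Socs3 at the high dose was 0.000723 on the second day and -0.0274 to 0.00652 with a region left out, above 0 without hippocampus (0.00652) or ventral striatum (0.00389). The low-dose mean of Ccl2 was 0.23 with all regions and 0.06 without cortex. No analysis paired by animal was possible because a pair of arrays is a dye swap of 1 replicate and the labels number no animals. The dose difference was paired within region.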
